A study of Mus musculus with 16 samples.

Results

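The telomere-proximal ends of the mouse autosomes were taken as the 10-kb bins between 100 and 1000 kb from the last base of each of chr1 to chr19 in the mm10 assembly, counted back from the end, so that the final 100 kb, a gap of unknown bases, was left out. Position alone chose these 1710 terminal bins out of 246095 autosomal bins, and no fragment count entered the choice. Most bases are known in 1666 of them, and the 1710 together hold 16645206 known bases. Haploid spermatids, sorted alive from testes by DNA staining, were profiled by AutoCUT&RUN, in which an antibody brings a nuclease to its target so that the nearby DNA is cut free and sequenced. The antibodies recognized H3K4me3, H3K27me3, or H3K9me3, and an IgG without a chromatin target served as the control. The KO animals were ΔH2A.B/Y males of 1 CRISPR line in which all 3 H2A.B genes (H2afb1, H2afb2, and H2afb3 on the X chromosome) are disrupted, and the WT animals were their +/Y brothers. All 4 males were 2 months old, had never mated, came from backcrosses to C57BL/6J, and formed 2 sibling pairs of 1 KO and 1 WT each. Each animal gave 1 library per target, so that the 16 libraries form 8 groups of 2.

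The libraries held 140181 to 3963850 distinct autosomal fragments, of which 1404 to 29642 lay in the terminal bins. The IgG libraries and the H3K27me3 library of WT replicate 2 were the smallest. Identical rows made up 33.6% to 83.4% of the fragments on the autosomes, X, and Y, so fragments of a library that share both ends were counted as 1 distinct fragment unless stated otherwise. H3K4me3 at the gene starts of marker genes was checked against the label of the sorted cells. Of 12 autosomal spermatid markers, 11 had more H3K4me3 fragments within 1 kb of the start than the median promoter, as did 0 of 9 markers of somatic testis cells and 0 of 3 of blood and endothelium. Fragments over the H2A.B genes do not check the genotypes, since short deletions leave the flanks in place. The 8 KO libraries had 22 such fragments and the 8 WT libraries 25.

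Mouse autosomes carry the centromere at one tip, so the end of the assembly used here is the long-arm telomere of each chromosome. A telomere is an array of a short repeat that is bound by the shelterin proteins and packed as constitutive heterochromatin, and in spermatids the genome around it is being prepared for the exchange of histones for protamines. H3K4me3 marks active promoters, H3K27me3 is the mark of Polycomb repression, and H3K9me3 marks constitutive heterochromatin, repeats, and clusters of some gene families.

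On each chromosome but chr4 the last known 1 kb holds a run of at least 4 copies of the telomere repeat. The longest uninterrupted array of the telomere repeat in these bins lies on chr7 and holds 88 copies over 528 bp, all of them reading TTAGGG toward the end. The last known bases of chr4 are shown because they hold 0 copies, while the last 1 kb of chr4 had 474 H3K9me3 fragments in 4 libraries (chr4:156357997-156358116, + strand, the last 120 known bases, between genes).
chr4 end: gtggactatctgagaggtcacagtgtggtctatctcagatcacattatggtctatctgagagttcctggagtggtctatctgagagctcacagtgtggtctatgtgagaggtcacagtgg

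The stretches of 300 bases with the highest coverage in the terminal bin richest in each mark show what the 3 marks covered away from the telomere, with the dinucleotide CG in capitals. The H3K4me3 maximum (chr2:181676225-181676524) lies between genes on chr2, 3.94 kb from the start of Tcea2, which encodes a transcription elongation factor found mostly in testis. The stretch holds 2 CG in 41% GC, and 68% of it is soft-masked. The H3K27me3 maximum (chr13:120028734-120029033) lies between genes on chr13, 1.87 kb from the start of Gm36079, and holds 15 CG. The H3K9me3 maximum (chr13:119599981-119600280) lies in an intron of Tmem267 on chr13 and is a tandem repeat, 86% of it soft-masked. All sequences are of the + strand of mm10, and each stretch has 1 exact copy in the assembly, although reads from inside a repeat may fit elsewhere.
H3K4me3 maximum: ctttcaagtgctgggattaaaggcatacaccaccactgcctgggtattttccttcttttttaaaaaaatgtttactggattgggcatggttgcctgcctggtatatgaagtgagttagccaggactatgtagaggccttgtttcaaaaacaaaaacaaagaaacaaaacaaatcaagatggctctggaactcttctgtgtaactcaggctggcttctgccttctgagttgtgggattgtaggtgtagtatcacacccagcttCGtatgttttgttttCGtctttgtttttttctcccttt
H3K27me3 maximum: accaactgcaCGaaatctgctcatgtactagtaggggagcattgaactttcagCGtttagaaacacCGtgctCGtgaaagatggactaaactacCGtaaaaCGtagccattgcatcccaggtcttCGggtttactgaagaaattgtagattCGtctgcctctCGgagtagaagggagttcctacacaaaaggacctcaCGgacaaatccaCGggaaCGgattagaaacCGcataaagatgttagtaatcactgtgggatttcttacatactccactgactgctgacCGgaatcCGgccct
H3K9me3 maximum: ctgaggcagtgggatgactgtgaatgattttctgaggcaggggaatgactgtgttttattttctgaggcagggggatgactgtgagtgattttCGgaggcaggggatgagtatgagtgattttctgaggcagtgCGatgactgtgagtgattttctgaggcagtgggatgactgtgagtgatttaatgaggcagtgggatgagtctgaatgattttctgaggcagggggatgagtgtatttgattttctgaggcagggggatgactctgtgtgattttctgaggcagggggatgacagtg

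Fragments of all 4 targets piled up on the telomere repeat at the edge of the assembly, and relative to the density beyond 1 Mb IgG did so more than any histone mark. The last known 1 kb of each chromosome, a window chosen after the counts were seen, held 348 to 707 distinct fragments per IgG library over the 19 chromosomes. This was 24.8% to 36.1% of all terminal IgG fragments, at a density 314 to 551 times that of the autosomes beyond 1 Mb from the ends. The density per library was compared as the log2 of this ratio, in which more cells with signal and more signal per cell cannot be told apart. In IgG it was 8.56 and 8.80 in KO and 9.11 and 8.29 in WT. By number alone H3K9me3 had more fragments there than IgG, with 1461 to 2107 per library. The ratio thus depends also on how many fragments of a library lie elsewhere on the autosomes. It is further a density per known base of the assembly. Fragments of repeat DNA that the assembly lacks may map to the known copies, and their part in the ratio was not tested.

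H3K9me3 came next, with log2 densities of 5.54 and 5.88 in KO and 6.14 and 6.21 in WT. H3K4me3 followed with 5.38 and 4.86 in KO and 5.34 and 5.38 in WT. With H3K27me3 the sibling pairs lay far apart, at 2.36 in KO and 2.75 in WT of pair 1 and at 6.07 in KO and 6.31 in WT of pair 2. The H3K27me3 libraries of pair 2 were also the smaller ones, with 685026 and 196218 distinct autosomal fragments against 3773436 and 2863163 in pair 1, and the part of depth in this gap was not tested. IgG did not overlap with any of the 3 marks, with a mean of 8.69 ± 0.35 (SD, n = 4) against 5.94 ± 0.30 for H3K9me3, 5.24 ± 0.25 for H3K4me3, and 4.37 ± 2.10 for H3K27me3. H3K4me3 minus H3K9me3 was -0.70 in the mean, while H3K27me3 overlapped with both. No p-value is given, since the window was chosen with these counts in view.

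How fragments were counted changed the size of this pile-up. In the last 1 kb each distinct fragment stood for 1.02 to 1.28 deposited rows, against 1.75 to 6.41 rows beyond 1 Mb, so counting every row lowered the log2 density to 5.94 to 6.75 in IgG, 4.98 to 5.67 in H3K9me3, 2.70 to 4.17 in H3K4me3, and 1.13 to 4.83 in H3K27me3. IgG remained above every mark, with H3K9me3 minus IgG at -0.93 in the mean.

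Across chromosomes the fragments followed the number of repeats in the assembly. The last 1 kb of chr14 holds 114 copies of the hexamer and had 464 IgG fragments in 4 libraries, whereas that of chr9 with 6 copies had 1. On chr4, where it holds 0 copies, there were 0 IgG, 1 H3K27me3, and 12 H3K4me3 fragments but 474 H3K9me3 fragments, against 463 on chr10 with 63 copies. Over the 19 chromosomes Spearman's rho between copies and fragments was 0.97 for IgG, 0.98 for H3K4me3, 0.99 for H3K27me3, and 0.82 for H3K9me3, as a description of points that share their libraries. A 25-bp read inside the array fits any array of the genome, so its assignment to one chromosome, and the length of a fragment with both reads there, cannot be told from the deposited lists.

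**Figure D1:**
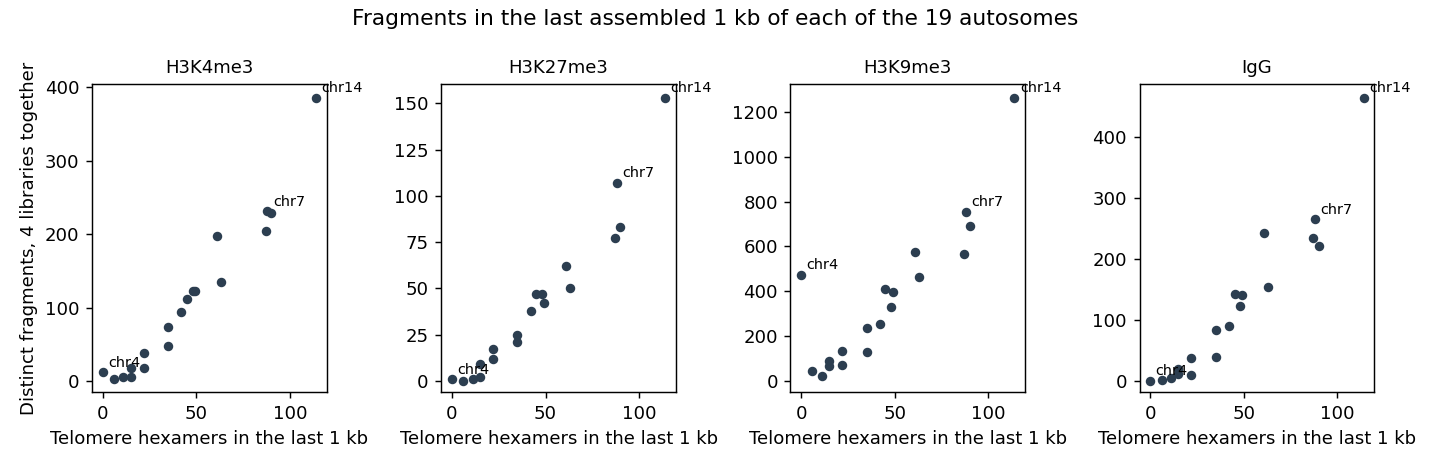
Copies of the telomere hexamer in the last known 1 kb of each autosome (x) against the distinct fragments there in 4 libraries together (y, a separate scale per target), 1 point per chromosome. Counts rise with the copies in every panel, from 0 or 1 IgG fragments at 0 and 6 copies to 464 at 114 copies on chr14, and chr4 stands apart for H3K9me3 alone, with 474 fragments at 0 copies.

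Telomere-like arrays elsewhere on the autosomes drew fragments too. Runs of 4 or more copies number 30 at the ends and 301 outside the terminal bins. Overlaps of IgG fragments of 4 libraries with these runs came to 680 per kb of run at the ends and 378 elsewhere. A fragment that reaches several runs is counted for each, so runs that lie close together raise these values. Among runs of 12 or more copies the values were 650 over 21 runs at the ends and 205 over 40 runs elsewhere. H3K9me3 had 1817 at the ends against 628 elsewhere, and H3K4me3 had 570 against 186. Overlaps per kb of run were thus denser at the ends for each of these targets, and the part of repeated counting in this was not tested.

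Over all terminal bins IgG was again the most enriched target, followed by H3K4me3, H3K27me3, and H3K9me3. Terminal enrichment is the log2 of distinct fragments per known base in the terminal bins over those in all other autosomal bins. In IgG it was 0.50 and 0.63 in KO and 0.80 and 0.53 in WT. In H3K4me3 it was 0.42 and 0.41 in KO and 0.38 and 0.41 in WT, the narrowest spread of the targets. In H3K27me3 it was 0.18 and 0.32 in KO and 0.18 and 0.30 in WT, with the higher value in pair 2 of both genotypes. In H3K9me3 it was 0.08 and -0.18 in KO and 0.16 and -0.02 in WT, on both sides of 0. The terminal bins held 0.98% to 1.21% of autosomal IgG fragments and 0.615% to 0.774% of H3K9me3 fragments. The widest 95% Wilson interval, that of the 1.21% in IgG WT replicate 1, ran from 1.15% to 1.26% and reflects only the error of counting.

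None of the 6 pairs of targets overlapped, and each differed with the smallest p that 4 against 4 libraries allow (exact two-sided permutation test, p = 0.0286, adjusted p = 0.0286). The 4 libraries of each target come from the same 4 animals, and with the animal as a block each of the 6 calls was lost (exact sign-flip test, p = 0.125, the smallest that 4 animals allow), although the direction was the same in 4 of 4 animals. The means were 0.62 ± 0.14 for IgG, 0.40 ± 0.02 for H3K4me3, 0.25 ± 0.08 for H3K27me3, and 0.01 ± 0.14 for H3K9me3 (SD, n = 4). The order of the marks turned with the reference and the width of the ends. Against the 10 Mb inward of the terminal bins H3K27me3 minus H3K9me3 was -0.98 (exact permutation test, adjusted p = 0.0343) and as the median over ends -0.48 (exact permutation test, adjusted p = 0.0429), and H3K4me3 minus H3K9me3 was -0.28 and -0.22 (exact permutation test, adjusted p = 0.0857 and 0.114). With bins from 100 to 2000 kb H3K4me3 minus H3K27me3 was -0.31 and H3K27me3 minus IgG 0.31 (exact permutation test, adjusted p = 0.0343 each). The place of IgG rested on the pile-up at the repeat. When the bins between 100 and 110 kb were left out, IgG fell to 0.08 ± 0.08, below H3K4me3 at 0.37 ± 0.02. H3K27me3 at 0.19 ± 0.03 was also above IgG in the mean, but their libraries overlapped. No p-value is given for this setting, since these bins were left out after the IgG pile-up in them was seen. Counting every row also turned H3K4me3 minus IgG to 0.32 (exact permutation test, adjusted p = 0.0343) and H3K27me3 minus IgG to 0.033 (exact permutation test, adjusted p = 0.571).

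The denominator mattered as well. Outside the terminal bins, 16 bins on 9 chromosomes had over 1000 FPM (distinct fragments per 1000000 distinct autosomal fragments) in the mean of the IgG libraries and held 18.6% to 24.5% of autosomal H3K9me3 and 9.03% to 20.8% of IgG fragments, against 0.694% to 2.16% of H3K4me3. Both these bins and the last 10 kb were picked out after the counts were seen. Without them, the enrichment was 0.39 ± 0.02 for H3K4me3, 0.24 ± 0.07 for H3K27me3, 0.25 ± 0.11 for H3K9me3, and 0.31 ± 0.08 for IgG (SD, n = 4). All 16 libraries then lay above 0, and H3K4me3, H3K27me3, and H3K9me3 minus IgG came to 0.076, -0.073, and -0.065. The libraries of each mark overlapped with those of IgG. With every row counted and the same bins removed, the differences came to 0.37, 0.080, and 0.17, with all 4 H3K4me3 libraries above all 4 of IgG. With both kinds of pile-up removed, the size of each difference from the control thus depended on the count. P-values are left out for these settings, since the bins were removed with their IgG counts in view.

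**Figure D2:**
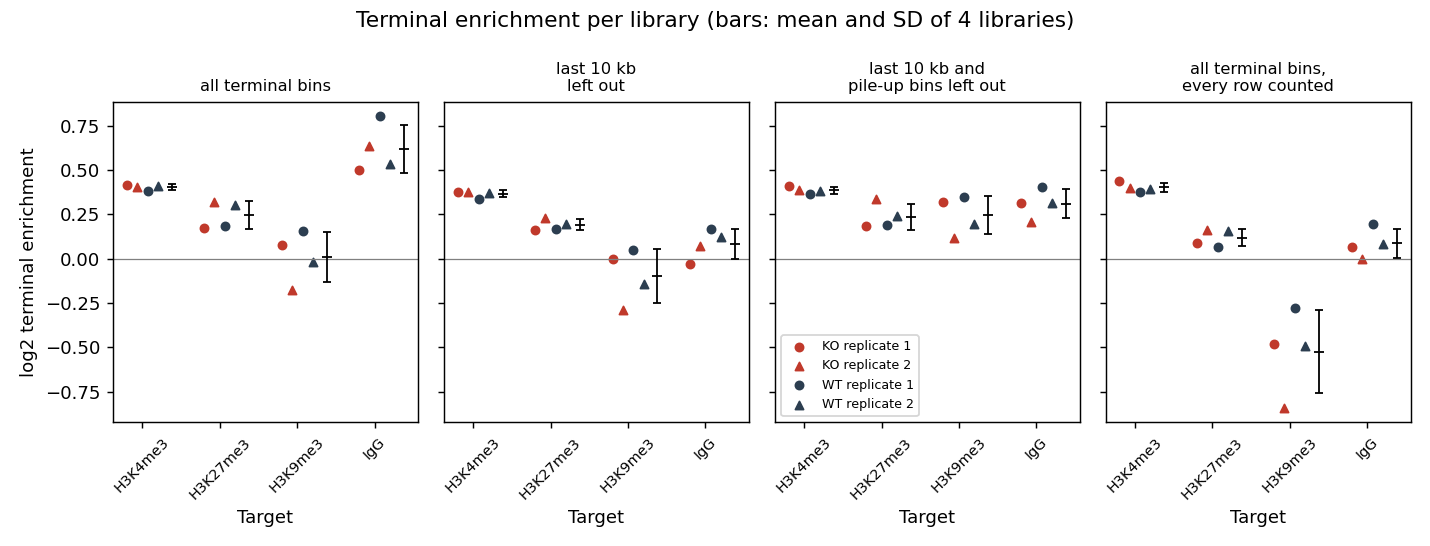
Log2 terminal enrichment (y) of each library by target (x), over all terminal bins, without the last 10 kb, without the last 10 kb and the 16 pile-up bins, and with every deposited row counted. Points are KO (red) and WT (dark) libraries of replicate 1 (circles) and 2 (triangles), and bars give the mean and SD of 4 libraries. IgG is highest in the first panel at 0.50 to 0.80 and falls to -0.03 to 0.17 in the second, while H3K4me3 stays between 0.34 and 0.44 in every panel.

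Each mark had its own course with distance. H3K4me3 rose at the repeat, with 1.85 to 2.34 in the last 10 kb before the gap, and was depleted from 110 to 150 kb at -0.86 ± 0.22 (SD, n = 4). Further inward it varied by step. It lay above the autosomal level at 0.45 ± 0.17 from 200 to 300 kb, 0.65 ± 0.10 from 600 to 700 kb, and 0.72 ± 0.14 from 800 to 900 kb. It was nearer to that level at 0.07 ± 0.15 from 150 to 200 kb, 0.14 ± 0.14 from 300 to 400 kb, and 0.0056 ± 0.079 from 900 to 1000 kb. H3K9me3 stood at 2.65 to 3.17 in the last 10 kb, at 0.56 ± 0.33 from 110 to 150 kb, and at 1.38 ± 0.24 from 150 to 200 kb, from where it fell inward through -0.24 ± 0.24 at 400 to 500 kb to -1.24 ± 0.11 at 900 to 1000 kb. Between 2000 and 5000 kb it was still at -1.21 ± 0.16. The descent was broken at 800 to 900 kb, where it stood at 0.09 ± 0.15 and a tandem repeat of chr13 lies. Much of the step from 150 to 200 kb lay in a few bins of chr2 and chr4. In KO replicate 1 the chr2 bins 180 and 190 kb from the end held 917 and 937 of its 4911 fragments. The chr4 bins at 160 and 150 kb held 534 and 276. In WT replicate 2 these bins held 411, 354, 330, and 206 of 2785. With every row counted, H3K4me3 in the last 10 kb came to 0.40 and 1.15 in KO and -0.049 and 1.21 in WT, so that the rise was smaller and was lost in WT replicate 1, and H3K9me3 from 110 to 150 kb lay on both sides of 0, between -0.50 and 0.41.

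H3K27me3 rose at the repeat too, with 0.98 in KO and 1.15 in WT of pair 1 and 3.10 in KO and 3.28 in WT of pair 2. Among the later steps up to 1000 kb it was highest at 1.08 ± 0.16 from 300 to 400 kb, where the richest bins of chr13 lie, fell to -0.54 ± 0.06 from 600 to 700 kb, and stood at 0.68 ± 0.11 between 1000 and 2000 kb, beyond the terminal bins. IgG was at 5.17 to 5.96 in the last 10 kb and between -0.45 and 0.43 in the mean of every later step up to 1000 kb. Of the 4 targets IgG had the steepest contrast between the repeat and its surroundings when distinct fragments were counted. With every row counted IgG came to 2.93 to 3.67 in the last 10 kb. In WT replicate 2 it then fell from 2.93 to 0.26 between 110 and 150 kb, a smaller step than that of H3K9me3, from 2.64 to -0.11. In KO replicate 1 IgG fell from 3.11 to -0.16 and H3K9me3 from 2.09 to 0.18. IgG likewise had the larger step in KO replicate 2 and WT replicate 1.

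**Figure D3:**
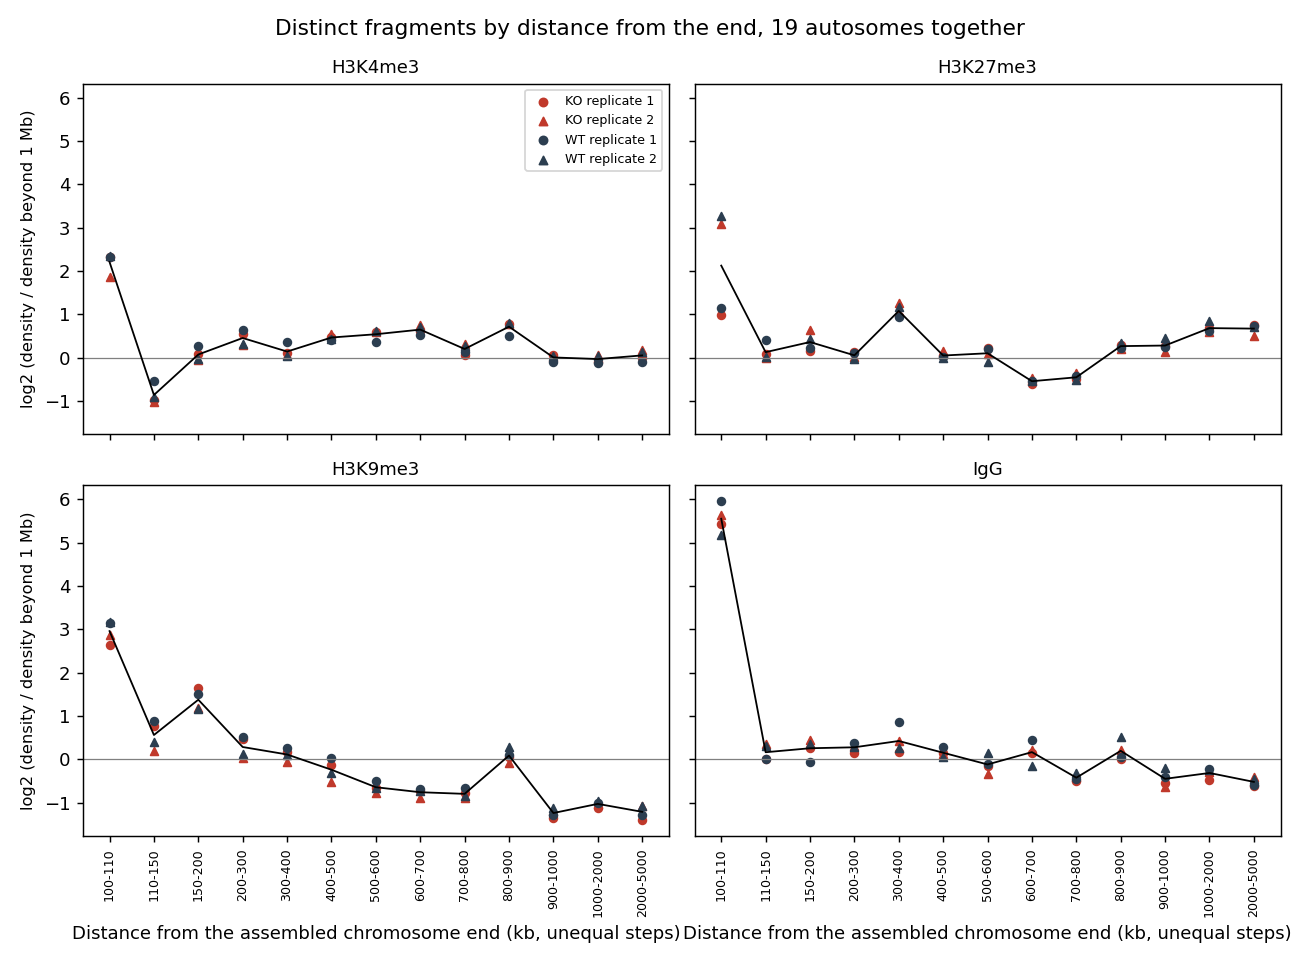
Log2 of fragment density over the density beyond 1 Mb (y) by distance from the assembled chromosome end in kb (x, steps of unequal width), 19 autosomes together, in 1 panel per target. Points are libraries as marked and the line is their mean. IgG reaches 5.17 to 5.96 at 100 to 110 kb and is near 0 after that, H3K9me3 declines from 1.38 at 150 to 200 kb to -1.24 at 900 to 1000 kb with a rise at 800 to 900 kb, and H3K4me3 dips to -0.86 at 110 to 150 kb.

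The 19 ends differed from each other far more than libraries of 1 end did. The SD over ends was 0.72 for H3K4me3, 1.03 for H3K27me3, 0.67 for H3K9me3, and 0.59 for IgG, against a median SD over libraries of 0.15, 0.17, 0.17, and 0.24. For H3K4me3, 8 ends lay above the autosomal level in all 4 libraries and 4 below in all 4. H3K27me3 had 7 above and 11 below, H3K9me3 5 above and 7 below, and IgG 13 above and 3 below. Without the last 10 kb IgG had 6 above and 6 below, H3K4me3 8 above and 7 below, H3K27me3 6 above and 11 below, and H3K9me3 4 above and 7 below. The autosomal level is a mean density, to which the 16 pile-up bins gave 18.6% to 24.5% of the H3K9me3 fragments. Within its own chromosome the median end exceeded 84.9% of the other windows of 900 kb in H3K9me3.

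H3K4me3 was highest at the ends of chr2, chr4, and chr15. At chr2 the log2 enrichment was 1.55 and 1.66 in KO and 1.30 and 1.64 in WT. At chr4 it was 1.46 and 1.66 in KO and 1.18 and 1.70 in WT, and at chr15 1.03 and 1.22 in KO and 0.88 and 1.15 in WT. Chr2 and chr4 overlapped and did not differ beyond their spread. Chr15 likewise overlapped with chr13, which had 1.07 and 1.06 in KO and 0.90 and 1.12 in WT. The chr4 end holds 40 protein-coding starts, the most of any end, among them Agrn, which organizes the neuromuscular junction, and Dvl1, a transducer of Wnt signals. The chr2 end holds 31, among them Rtel1, a helicase that protects telomeres, and Sox18, a transcription factor of vessels.

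The lowest H3K4me3 was at chr3, with -0.67 and -1.39 in KO and -0.29 and -1.36 in WT, at chr10 with a mean of -0.62 ± 0.33, and at chr18 with -0.57 ± 0.56 (SD, n = 4). All 3 had higher values in replicate 1 than in replicate 2 of both genotypes. With every row counted this gap was absent in KO, where replicate 2 was the higher one at all 3 ends, and the ends lay lower, at -1.87 and -1.72 in KO and -1.80 and -1.96 in WT for chr3, from -1.15 to -0.65 for chr10, and from -1.66 to -1.38 for chr18. Of the 31 protein-coding starts of chr10, 28 belong to olfactory or vomeronasal receptors, which serve smell and pheromone sensing. Chr3 and chr18 hold 3 protein-coding starts each. The plot of the 19 ends shows these gaps beside those of the other targets.

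The terminal bin with the most H3K4me3 lies 430 kb from the end of chr2 at Tcea2, with 119 and 91.4 FPM in KO and 107 and 94.0 in WT. It stood above 99.9% of all autosomal bins. The bin of Prpf6, a splicing factor, and Samd10 followed with a mean of 99.2 FPM, and that of Rgs19 and Lkaaear1 with 98.1. On chr8, whose end was near the autosomal level at -0.05 ± 0.32 (SD, n = 4), the bin of Ccdc7a and Ccdc7b had 89.6, and on chr15 the bins of Cbx5 with Hnrnpa1 and of Gtsf1 had 88.1 and 87.9.

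H3K27me3 was concentrated at chr13, with 2.36 and 2.63 in KO and 2.34 and 2.64 in WT. Chr15 followed at 1.39 and 1.51 in KO and 1.40 and 1.93 in WT, and chr7 at 0.85 and 0.76 in KO and 0.85 and 0.84 in WT. None of these 3 ends overlapped with another. The lowest were chr8 with a mean of -1.77 ± 0.67, chr17 with -1.52 ± 0.38, and chr9 with -1.33 ± 0.13 (SD, n = 4), whose ranges overlapped.

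At chr13, where Tcstv1 and Tcstv3 of a family transcribed in the early embryo lie too, the mark was strongest over a stretch of predicted genes. The bin of Gm36079 had 262 and 504 FPM in KO and 270 and 494 in WT, the highest of the terminal bins. The next bin, of Gm21188, had a mean of 304, and 2 further bins of the stretch, at Gm20784 and Gm21378, had 240 and 239. Whether reads are shared with similar copies nearby cannot be told from the deposited lists. On chr15 the richest bin, at 5730585A16Rik, had 151, and on chr5 that of Kl, which encodes the FGF co-receptor klotho, had 129. On chr7 the bin of Fgf15, a growth factor gene of the gut, had 134 and 97.8 FPM in KO and 129 and 81.5 in WT, and the bin of Fgf4 followed.

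H3K9me3 was highest at chr13 as well, with 1.16 and 0.89 in KO and 1.12 and 1.34 in WT. Chr18 followed at 0.68 ± 0.29 and chr2 at 0.56 ± 0.15 (SD, n = 4), 2 ends that overlapped. On chr13, 49.8% to 60.8% of the fragments lay in 3 bins around Tmem267, which begin 800, 810, and 820 kb from the end, where the tandem repeat printed above lies and where IgG was also high, at a mean log2 of 4.16 over the step from 800 to 900 kb. At chr2, 61.8% to 81.4% lay in 3 bins that include 2 without a gene start 180 and 190 kb from the end, with means of 177 and 162 FPM. At chr4 the richest bins held the vomeronasal receptor genes Vmn2r-ps159 and Vmn2r125, with a mean of 112 FPM in the bin of the first. The lowest ends were chr7 with -1.43 ± 0.66, chr6 with -1.40 ± 0.07, and chr11 with -1.17 ± 0.16.

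IgG was highest at chr14, with 1.52 and 1.70 in KO and 1.84 and 1.69 in WT, followed by chr13 with 1.16 ± 0.31 and chr10 with 1.12 ± 0.43 (SD, n = 4), which overlapped. Chr14 has the most telomere hexamers, and its last bin alone had 631 and 758 FPM in KO and 754 and 599 in WT. Of the 8 terminal bins richest in IgG, 7 were the last before the gap. Without the last 10 kb of each chromosome chr14 fell to a mean of 0.48 ± 0.23. The lowest IgG was at chr6, chr11, and chr4, at -0.46 ± 0.16, -0.36 ± 0.20, and -0.27 ± 0.25. In chr4 and chr6 the final gap is 150000 bases long, so the bin at 100 kb holds no known base.

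**Figure D4:**
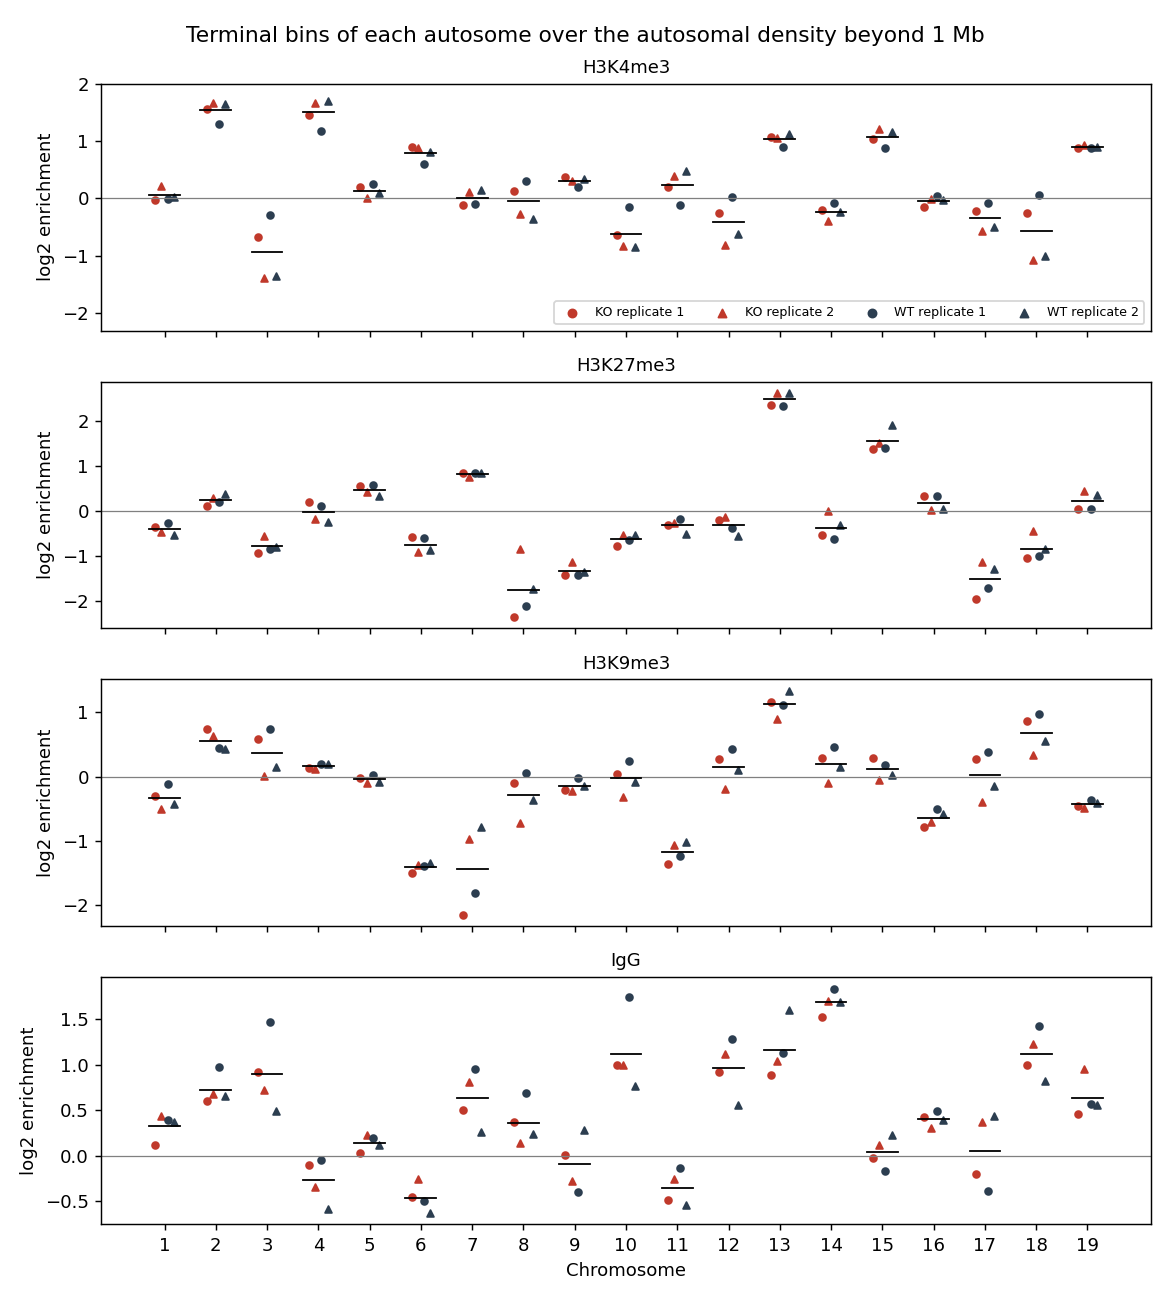
Log2 enrichment of the terminal bins of each autosome (x) over the autosomal density beyond 1 Mb (y), in 1 panel per target with its own scale. Points are the 4 libraries as marked and bars their mean. H3K4me3 peaks at chr2 with a mean of 1.54 and at chr4, H3K27me3 at chr13 with 2.50, H3K9me3 at chr13 with 1.13, and IgG at chr14 with 1.69.

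Set against IgG, the ends of chr4, chr6, and chr15 had more H3K4me3 and those of chr14, chr10, and chr3 less. These 3 higher ends hold 40, 9, and 16 protein-coding starts, and the 3 lower ends 1, 31, and 3. On chr4 and chr6 the bin at 100 kb, where IgG piled up on other chromosomes, holds no known base. Each end was one of 2669 autosomal windows of 900 kb in a limma-voom fit, and p-values were adjusted over all windows. For H3K4me3, 5 of 19 ends were called higher than IgG and 7 lower at an adjusted p under 0.05, while 36% and 41.4% of all windows were. The log2 difference was 1.68 ± 0.19 at chr4, 1.21 ± 0.16 at chr6, and 0.98 ± 0.16 at chr15 (SE), and -1.89 ± 0.13 at chr14, -1.68 ± 0.21 at chr10, and -1.80 ± 0.25 at chr3, each in the same direction in 4 of 4 animals. For H3K27me3, 2 ends were higher, chr15 by 1.72 ± 0.17 and chr13 by 1.44 ± 0.20, and 11 lower, against 28.4% and 45.1% of all windows. The lower ends with the smallest adjusted p were at -1.92 ± 0.15 at chr14, -1.85 ± 0.18 at chr18, and -2.22 ± 0.26 at chr8.

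For H3K9me3, 0 ends were called higher and 9 lower (limma-voom, with 1 and 11 ends at an unadjusted p under 0.05), against 7.83% and 56.7% of all windows. Among the 9 were chr14 at -1.48 ± 0.14, chr19 at -1.04 ± 0.14, and chr16 at -1.05 ± 0.16 (SE). With limma-trend 1 and 12 were called, against 9.25% and 73.9% of all windows. For H3K27me3, scale normalization of the libraries gave 5 ends higher and 9 lower, against 36.8% and 38.1% of all windows, and the median over all windows moved from -0.26 to -0.050. The direction of the H3K9me3 count depended on this choice, since the median over all windows was -0.85, below the ends' own median of -0.61, and scale normalization, which brings the median of all windows to 0.010, gave 7 ends higher and 0 lower, against 18.7% and 6.78% of all windows. The fit without the last 10 kb of each chromosome was added after the IgG pile-up there was seen. In it 7 ends were higher and 5 lower in H3K4me3, 5 higher and 8 lower in H3K27me3, and 1 higher and 5 lower in H3K9me3, while the counts over all windows moved by at most 3. Without these bins H3K4me3 at chr7 went from -0.64 to 0.69 and H3K27me3 at chr2 from -0.41 to 0.50. The difference at chr14 then came to -0.98 in H3K4me3, -1.03 in H3K27me3, and -0.60 in H3K9me3 (limma-voom, adjusted p = 5.01e-05, 6.19e-05, and 0.0542), the last short of the threshold. The H3K9me3 difference at chr16 came to -0.59 (limma-voom, adjusted p = 0.0271).

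The ends also differed in sequence and genes, which the choice by position did not use. The terminal bins hold 14.7 protein-coding starts per Mb, against 8.64 in the rest of the autosomes, with 41.8% GC against 41.9%, 7.33 CpG per kb against 8.52, and 38.9% soft-masked bases against 33.4%. Of their 244 protein-coding starts, 24 are olfactory receptors, 6 vomeronasal receptors, and 5 zinc finger genes. For the comparison with these features the enrichment of each end was taken without its last 10 kb. Across the 19 ends H3K4me3 then followed the density of protein-coding starts (Spearman's rho 0.67, and 0.85 without the receptor families) and the CpG density (0.78), H3K27me3 the CpG density (0.64), and IgG the share of soft-masked bases (0.76), as descriptions of 19 points that share their libraries. For H3K9me3 rho was 0.022 for genes outside the receptor families, 0.026 for CpG, and 0.41 for soft-masked bases.

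Although genes were denser, the typical promoter of the terminal bins had less H3K4me3 than promoters elsewhere. The median over 244 protein-coding promoters, counted within 1 kb of the start, was 1.42 FPM in the mean of the libraries, against 3.35 over 20563 promoters elsewhere, and was lower in each of the 4 libraries. Of the 244, 101 or 41.4% lay above the median of all promoters. Of the 24 olfactory receptors 0 did, where 1.27% of the 1104 elsewhere did, and 98 or 46.9% of the 209 genes of neither receptor nor zinc finger family did, against 53.4% of 18726 elsewhere. In bins without any gene start the terminal H3K4me3 was the higher one, with a median of 1.43 FPM against 0.986 in the mean of the libraries and in 3 of 4 single libraries, and so was H3K9me3 with 1.31 against 0.900, in 4 of 4. In the control the same medians were 2.85 and 2.12, while the median IgG bin had 0 fragments in each single library in both regions. For H3K27me3 the promoter medians were 0.318 and 0.365. No test over promoters or bins was made, since they share their libraries.

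The 6 terminal promoters with the most H3K4me3 lie on chr15, chr2, and chr6. Cbx5, which encodes the heterochromatin protein HP1α that binds H3K9me3, had 44.9 and 44.6 FPM in KO and 33.9 and 37.2 in WT. Gtsf1, a factor of the piRNA pathway, had 34.5 and 39.9 in KO and 38.1 and 37.7 in WT. The others were the splicing regulator Hnrnpa1 with a mean of 36.0, Lkaaear1 with 33.2, Gtsf2 with 32.4, and Amn1 with 32.1. Cbx5 and Hnrnpa1 start 803.9 and 803.3 kb from the end of chr15, so their windows overlap and the same fragments can count for both. All 6 stood above 97.9% to 99.4% of autosomal promoters, and each had an H3K27me3 mean of at most 2.41.

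The 6 with the most H3K27me3 lie on 6 chromosomes. Gm36079 had 61.0 and 65.7 in KO and 50.6 and 71.3 in WT, with 0 H3K4me3 fragments in every library. Fgf15 had 72.9 and 35.0 in KO and 69.5 and 51.0 in WT. Prlhr, the receptor for prolactin-releasing peptide, had a mean of 49.4, Kl 44.1, the protease gene Tmprss2 42.1, and Wls, which is needed to secrete Wnt proteins, 41.3. All 6 lay below the median promoter in H3K4me3.

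On each chromosome the protein-coding gene nearest to the end was described by its position alone. These 19 starts lie between Gm21836 on chr9, 101.3 kb from the end, and Bicd1 on chr6, at 327.7 kb. Only 3 of them stood above the median promoter in H3K4me3. Mettl4 on chr17, a methyltransferase, had 18.5 and 15.5 FPM in KO and 19.8 and 17.1 in WT, Ptchd3 on chr11, expressed in male germ cells, had a mean of 17.3, and Rfc3 on chr5, a subunit of the replication clamp loader, had 12.4. High H3K27me3 was found at Wls on chr3, at Tmem196 on chr12 with a mean of 38.5, at Fgf14 on chr14 with 33.3, and at A630089N07Rik on chr16 with 17.9. H3K9me3 was highest at Vmn2r-ps159 on chr4 and at Gm21836 on chr9, 4.28 and 3.76 FPM, and no other of the 19 exceeded 1.75.

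Fragments in the repeat were short in every library. In the last 1 kb, 49.5% to 61.2% of distinct fragments were small, 120 bp or shorter, in all 16 libraries, with median lengths from 99 bp to 126 bp. In the terminal bins beyond 110 kb the share ranged from 10.2% to 35.2% in the mark libraries and from 45.4% to 66.5% in IgG, against 10.7% to 36.0% and 44.5% to 57.2% beyond 1 Mb. In IgG the ratio of small fragments to large ones of 150 bp or more was, in log2, higher there than beyond 1 Mb in 4 of 4 libraries, by 0.0059 to 0.62. In the mark libraries the small share was thus higher in the repeat than in the other terminal bins in 12 of 12 libraries. Since a fragment whose reads both fall in an array has no certain length, these sizes hold only as mapped.

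**Figure D5:**
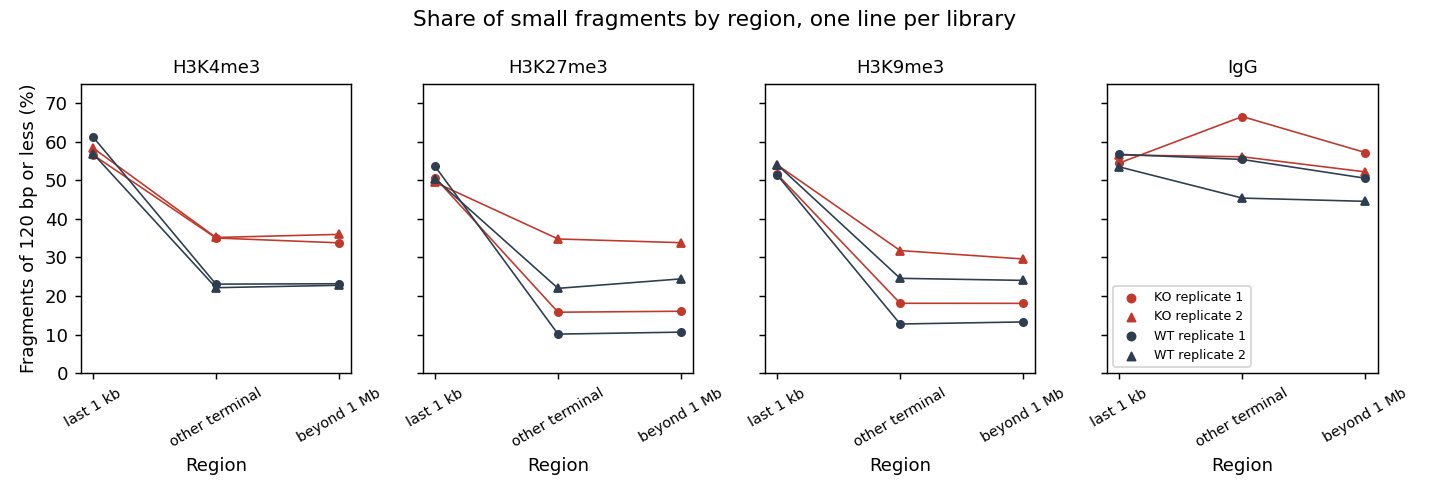
Percent of distinct fragments of 120 bp or less (y) in the last known 1 kb, the terminal bins beyond 110 kb, and the autosomes beyond 1 Mb (x), 1 line per library, KO in red and WT in dark. The values meet between 49.5% and 61.2% in the last 1 kb for all targets, while in the other regions the KO lines of H3K4me3 lie at 33.8% to 36.0% and the WT lines at 22.2% to 23.2%.

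The study asked whether the loss of H2A.B changes chromatin in these cells, and at the ends fragments were shorter in KO in both sibling pairs for each target, by more than the replicate spread in H3K4me3 and IgG, while no difference in coverage was called at an end. In H3K4me3, 35.8% of terminal fragments were small in both KO libraries, against 24.4% and 23.4% in WT. The ratio of small to large fragments had a log2 of -0.70 ± 0.056 in KO against -1.55 ± 0.018 in WT (SD, n = 2). KO minus WT was 0.85 and exceeded the replicate SD of 0.041, with 0.80 and 0.91 in the sibling pairs. In IgG, 62.8% and 55.9% were small in KO and 55.8% and 47.3% in WT, and the log2 ratio differed by 0.54 with a replicate SD of 0.31, and by 0.45 and 0.62 in the pairs. In H3K27me3 and H3K9me3 the differences of 0.78 and 0.43 stayed under the SD between replicates, 1.11 and 0.78, which include the gap between the pairs. Within the pairs KO minus WT was 0.70 and 0.86 in H3K27me3 and 0.41 and 0.46 in H3K9me3. Leaving out 1 library, which breaks a pair, gave 0.81 to 0.89 in H3K4me3 and 0.28 (without WT replicate 2) to 0.79 (without WT replicate 1) in IgG, the lowest under the SD of 0.31. In H3K27me3 it gave -0.042 without KO replicate 2, 0.039 without WT replicate 1, 1.53 without WT replicate 2, and 1.61 without KO replicate 1. In H3K9me3 the direction turned without KO replicate 2 (-0.13) and without WT replicate 1 (-0.10), while the values without WT replicate 2 and KO replicate 1 were 0.970 and 0.996. With 2 libraries against 2 an exact permutation test cannot go below p = 0.333.

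Set against the rest of the autosomes, the ends showed small further differences in size. The ratio at the ends minus that beyond 1 Mb differed between KO and WT by -0.011 for H3K4me3, -0.039 for H3K9me3, and 0.11 for IgG, all under the replicate SD, and by 0.095 for H3K27me3, above its SD of 0.067 (exact permutation test, p = 0.333). In the last 1 kb, where all libraries were rich in small fragments, KO minus WT was -0.11, -0.08, -0.03, and 0.08 for H3K4me3, H3K27me3, H3K9me3, and IgG. The H3K4me3 value, with -0.18 and -0.043 in the pairs, exceeded its replicate SD of 0.059 in the direction opposite to that of all terminal bins (exact permutation test, p = 0.333), and the other 3 lay under theirs. Per end, the ratio was tested by limma on windows after centering each library on its median, and 0 of 19 ends were called for each target, against 0.0749% of all windows in H3K4me3 and 0% in H3K27me3, H3K9me3, and IgG. At an unadjusted p under 0.05 there were 0 ends in H3K4me3 and H3K27me3, 1 in H3K9me3, and 2 in IgG. Without centering, all 19 ends were called for H3K4me3, with log2 differences from 0.59 to 1.20, as were 92.5% of all windows. With the sibling pair as a block, chr7 was called for H3K9me3 at -0.67 ± 0.14 (SE, limma, adjusted p = 0.0313), where 0.562% of all windows were.

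In coverage, terminal enrichment differed between KO and WT by 0.016 for H3K4me3, 0.0056 for H3K27me3, -0.12 for H3K9me3, and -0.10 for IgG. The replicate SDs were larger, at 0.017, 0.095, 0.15, and 0.15, and p lay between 0.667 and 1 (exact permutation test). Within the sibling pairs, whose gap the SD includes, KO minus WT was -0.080 and -0.16 in H3K9me3, below 0 in both, while the other 3 targets had 1 pair on each side of 0. In the last 1 kb the log2 density of H3K9me3 was 5.71 ± 0.24 in KO against 6.18 ± 0.046 in WT (SD, n = 2), with KO minus WT at -0.60 and -0.33 in the pairs (exact permutation test, p = 0.333, the smallest possible). The other targets differed there by less than their replicate SD, with -0.39 and -0.24 in the pairs for H3K27me3 and pairs on both sides of 0 for H3K4me3 and IgG.

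In the fits across the genome no end, terminal bin, or terminal promoter was called. Of the 19 ends, 0 were called for any target by limma-voom, and the share of all windows called was 0% for each of H3K4me3, H3K27me3, H3K9me3, and IgG. Before adjustment 0 ends passed p under 0.05 with limma-voom and 0 with limma-trend. The range of log2 differences over the ends was from -0.14 to 0.19 for H3K4me3 and from -0.35 to 0.25 for H3K9me3. For H3K9me3, 17 of 19 ends lay below 0, where the median of all windows was -0.13 and that of the ends -0.15. With the sibling pair as a block the H3K9me3 end of chr8 was called at -0.25 ± 0.09 (SE, limma-voom, adjusted p = 0.046), 1 of 19 where 10.4% of all windows were.

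Of the terminal bins with a mean of at least 10 fragments, 0 of 301 were called in H3K4me3, where 0% of 30429 bins were, 0 of 193 in H3K27me3, where 0% of 24654 were, and 0 of 481 in H3K9me3, where 0.00207% of 48236 were (limma-voom). At an unadjusted p under 0.05 there were 2, 0, and 6 terminal bins, against 158, 10, and 399 of all bins, and limma-trend called 0 in each. Of 89 terminal promoters with enough H3K4me3, 0 were called, as were 0% of 9325 in all, by limma-voom or limma-trend, with 7 at an unadjusted p under 0.05 by the former and 9 by the latter, against 357 and 546 of the 9325. Among the promoters named above, Amn1 differed by 0.76 ± 0.34, Rfc3 by -0.75 ± 0.38, and Cbx5 by 0.33 ± 0.35 (SE, adjusted p = 0.996 each). Calls appeared when 1 library was left out and the lone one of its group was assumed to vary like the others. Without WT replicate 2, H3K4me3 gave 2 of 19 ends, chr3 and chr18, and 4 of 301 bins, where 3.97% of all windows and 0.578% of all bins were called. Without KO replicate 1, H3K27me3 gave the end of chr8, where 8.02% of all windows were called, and 5 of 193 bins, where 0.126% of all bins were. The 5 bins are the last ones before the gap on chr2, chr3, chr7, chr18, and chr19 and had log2 differences from 2.66 to 4.78, where the pairs also stood apart in the repeat.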

How the data were processed

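Haploid spermatids of 2 KO and 2 WT mice were profiled for H3K4me3, H3K27me3, H3K9me3, and IgG (16 libraries). The authors aligned paired 25-bp reads to mm10 with Bowtie2 (version 2.2.5 in the methods, 2.3.4.3 in the processing notes) and deposited 1 row per fragment with its position and its length in bp. These values are positions and lengths, not counts. The methods state that duplicates were removed, yet identical rows remain, so distinct fragments were counted, by midpoint.

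Terminal bins, windows, promoters (GENCODE, mm10), and runs of at least 4 telomere hexamers were counted per library. Single values were compared by exact two-sided permutation tests with Benjamini-Hochberg adjustment, and windows of 900 kb, bins, and promoters by limma-voom scaled to the autosomal total, with limma-trend as an alternative. Size ratios set fragments of 120 bp or less against those of 150 bp or more. The tests were checked on simulated data. For each target the 3 highest and lowest ends, up to 3 called ends per direction by adjusted p, the gene nearest to each end, the 6 promoters with the most H3K4me3 and with the most H3K27me3, and the genes of the richest bins are named. Members and lists were chosen with earlier results of these data known.

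The replicate number was taken to mark a sibling pair. The methods describe replicates made from 2 sibling pairs, and same-numbered KO and WT libraries share codes in their labels. The labels name neither the pairs nor the meaning of the codes, so the pairing is inferred. Deviations of same-numbered KO and WT libraries from the group means correlated over 2669 windows at 0.816 for H3K4me3, 0.608 for H3K27me3, 0.946 for H3K9me3, and 0.306 for IgG. The p-values measure the spread between the libraries of these 4 animals, which includes any difference that goes with the codes. Software was limma 3.58.1 in R 4.3.3 for the fits and, in Python 3.11.15, SciPy 1.17.1 with NumPy 2.4.6 and pandas 2.3.3 for the rest.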

Additional observations from a re-analysis of the deposited data

Results flagged for a closer look

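At the end of chr13, H3K4me3 minus IgG in log2 enrichment lay above 0 in both KO animals, at 0.18 and 0.021, and below 0 in both WT animals, at -0.22 and -0.48. The KO mean minus the WT mean was 0.46. It drew attention because the 2 genotypes had opposite signs in every animal, 1 of 60 such contrasts over the terminal bins and the 19 ends, and the difference between the genotypes was not tested. The groups of 2 samples are too small to look for single samples that stand apart.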

How the results depend on the processing

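Of 436 alternative values, 324 were classed as unchanged. Differences between targets had to keep their direction and their side of the threshold, and KO minus WT values to move by less than the spread between replicates. Counts of calls had only to equal the main count or stay near it. In what follows, the pairs of targets compared in terminal enrichment are given as differences of log2 values, and the cause of a change was not tested unless the construction of the alternative shows it.

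Counting every row gave 0.32 for H3K4me3 minus IgG and 0.033 for H3K27me3 minus IgG. Terminal bins from 100 to 500 kb gave -0.85, -0.67, and -0.66 for H3K4me3, H3K27me3, and H3K9me3 minus IgG (adjusted p = 0.0571 each, exact permutation test), -0.19 for H3K4me3 minus H3K27me3, -0.20 for H3K4me3 minus H3K9me3, and -0.0093 for H3K27me3 minus H3K9me3. Bins from 100 to 2000 kb gave -0.0064 for H3K4me3 minus IgG, 0.31 for H3K27me3 minus IgG, and -0.31 for H3K4me3 minus H3K27me3. Bins on a grid from the chromosome start, which leave out the bases nearest to the gap, gave 0.28, 0.12, and -0.17 for the marks minus IgG. With the 10 Mb inward of the terminal bins as the reference, H3K4me3 minus H3K9me3 was -0.28 and H3K27me3 minus H3K9me3 -0.98. The median over ends gave 0.26, -0.22, and -0.48 for H3K4me3 minus H3K27me3, H3K4me3 minus H3K9me3, and H3K27me3 minus H3K9me3.

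The alternatives without the last 10 kb or the 16 pile-up bins were chosen after seeing the data. Without the last 10 kb the marks minus IgG were 0.28, 0.11, and -0.18, and with every row also counted 0.44 and 0.15 for H3K4me3 and H3K27me3. Without the pile-up bins they were -0.42, -0.55, and -0.49, and the marks differed by 0.13 (H3K4me3 minus H3K27me3), 0.073 (H3K4me3 minus H3K9me3), and -0.058 (H3K27me3 minus H3K9me3). Without both, the marks minus IgG were 0.076, -0.073, and -0.065 and the differences between marks 0.15, 0.14, and -0.0081. With every row counted as well, they were 0.37, 0.080, and 0.17, and 0.29, 0.19, and -0.094.

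WT libraries alone (smallest possible p = 0.333, exact permutation test) gave -0.27, -0.42, and -0.60 for the marks minus IgG and 0.15, 0.33, and 0.17 between marks. The animal as a block (smallest possible p = 0.125, exact sign-flip test) kept the values of -0.21, -0.37, -0.61, 0.16, 0.39, and 0.24. Leaving out 1 animal in turn gave -0.26 to -0.14, -0.42 to -0.29, and -0.67 to -0.54 for the marks minus IgG, and 0.13 to 0.18, 0.33 to 0.45, and 0.15 to 0.31 between marks, where 3 against 3 libraries cannot pass the threshold.

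KO minus WT in the terminal enrichment of H3K4me3 was 0.033 with every row, -0.057 from 100 to 500 kb, -0.031 against the inward 10 Mb, -0.17 as the median over ends, and 0.034 with every row but without pile-up bins and last 10 kb. KO minus WT in the size ratio at the ends was 1.15 for H3K4me3 and 0.99 for IgG with every row, and for H3K4me3 0.78 from 100 to 500 kb and 0.91 without the last 10 kb. Ends minus rest, it was 0.029 for H3K27me3 and 0.12 for H3K9me3 with every row, 0.17, 0.093, and 0.30 for H3K27me3, H3K9me3, and IgG without the last 10 kb, -0.11 for H3K9me3 with other length limits, and -0.11 for IgG from 100 to 500 kb.

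Among ends called against IgG, every row gave 8 higher for H3K4me3 and 4 for H3K27me3, against 31.8% and 25.5% of all windows. The main fit gave 5 and 2, against 36% and 28.4%. Scale normalization gave 5 higher for H3K27me3, against 36.8% of all windows, and 7 higher and 0 lower for H3K9me3, against 18.7% and 6.78%. Limma-trend, the last 10 kb left out, and the pile-up bins left out each gave 1 higher for H3K9me3, against 9.25%, 7.83%, and 8.13% of all windows. The second also gave 5 lower for H3K9me3, against 56.8%, and 5 higher for H3K27me3, against 28.4%. Without the pile-up bins H3K4me3 had 4 higher and 10 lower, against 29.5% and 47.8% of all windows. The total with X and Y gave 16 lower for H3K9me3, against 80.7% of all windows, where the main fit gave 9 and 56.7%. The sibling pair as a replicate block called 1 H3K9me3 end in coverage and 1 in the size ratio and no other end, terminal bin, or terminal promoter. Over all windows it took the calls in coverage from 0 to 17 for H3K4me3, 12 for H3K27me3, and 277 for H3K9me3, over all bins to 16, 26, and 7 from 0, 0, and 1, and in the size ratio to 3, 13, and 15 from 2, 0, and 0. The size ratio without centering called 19 H3K4me3 ends, as it did 2470 of 2669 windows. Leaving out 1 library gave 0 to 2 ends and 0 to 4 bins for H3K4me3 and 0 to 1 ends and 0 to 5 bins for H3K27me3.

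Reads of 25 bp inside repeats cannot be placed on one chromosome, the IgG libraries are shallow, and 2 libraries per genotype limit every comparison of KO and WT.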

Other observations

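A single terminal bin of chr10, 360 kb from the end at Tespa1, a gene of T cell signaling, stood out in IgG by sibling pair. It had 195 FPM (distinct fragments per 1000000 distinct autosomal fragments) in KO and 576 in WT of pair 1, from 46 and 81 distinct fragments, against 45.6 and 35.7 in pair 2, from 8 and 5. The bin was chosen after its values were seen.

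Within their own chromosomes the ends ranked highest in IgG. The median end exceeded 95.3% of the other 900-kb windows of its chromosome in IgG and 84.9% in H3K9me3, against 60.4% in H3K4me3 and 59.7% in H3K27me3. In IgG, 14 of 19 ends exceeded 90% of them, against 5 in H3K9me3, 5 in H3K4me3, and 2 in H3K27me3. On chr13 the step from 800 to 900 kb, which holds the tandem repeat rich in H3K9me3, was high in all 4 targets, with mean log2 values of 5.20 for H3K9me3, 4.16 for IgG, 3.05 for H3K4me3, and 2.52 for H3K27me3.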
